A study of Mus musculus with 4 samples.

Results

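Ribosome occupancy was examined for 9 chaperone genes, of 14984 genes in the deposited table, in mouse testis: Hspa2, Hspa4l, Hspa8, Hspa4, Hspa9, Hsph1, Hsp90aa1, Hsp90ab1 and Dnaja1. They were chosen by name, 2 as testis-enriched chaperones (Hspa2 and Hspa4l) and 7 as general chaperones, and all 9 were present in the table and passed the filter on low values. Ribosome footprints, the mRNA fragments that ribosomes shield from nuclease, had been sequenced from whole testes at day 10. There were 2 samples labelled cKO, in which floxed Eif5 (Eif5fl/fl) was deleted in germ cells by a Stra8-Cre transgene (Eif5 cKO), and 2 labelled control. The labels do not say which alleles the controls carried. Stra8-Cre acts in germ cells once they begin to differentiate, so the somatic cells of the testis kept Eif5 by design. Eif5 encodes eukaryotic translation initiation factor 5, which helps the scanning ribosome settle on a start codon.

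HSP70 chaperones bind exposed hydrophobic stretches of other proteins and release them in a cycle of ATP hydrolysis. J-domain proteins such as the product of Dnaja1 deliver clients and speed up hydrolysis, and HSP110 proteins (Hspa4, Hspa4l and Hsph1) exchange the nucleotide so that the client is let go. HSP90 takes over part of these clients, among them kinases and steroid receptors, and completes their folding. HSPA2 is the HSP70 of spermatocytes: it is associated with the synaptonemal complex, and male mice without it are sterile because spermatocytes do not complete meiosis. Loss of Hspa4l also lowers male fertility in mice, and loss of Hsp90aa1 stops spermatogenesis in meiosis.

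The Eif5 cKO libraries held 2296938 and 2782527 recovered reads and the control libraries 2934609 and 2225964. Values below are normalised footprint reads, which are the reads of a gene divided by a size factor of the library. Levels of different genes were not compared with each other, because the reads were not divided by transcript length. Replicates were not as close as counting error alone would make them: chi-square over its degrees of freedom was 10.3 for the Eif5 cKO pair and 8.02 for the control pair. Eif5 itself had 173 and 266 normalised reads in Eif5 cKO testes and 365 and 304 in controls, with a log2 fold change of -0.63 (SE 0.25) that did not pass in limma (adjusted p = 0.319). Both Eif5 cKO samples lay below both controls. The value sums the whole gene and includes somatic cells, so it is no measure of how completely the gene was deleted. Summed over the 11 germ cell markers in the table, 0.0880% and 0.109% of reads fell on these genes in Eif5 cKO libraries, and 0.236% and 0.199% in controls. For the 18 Sertoli cell markers the shares were 4.58% and 3.47% in Eif5 cKO and 2.67% and 3.39% in control. None of the germ cell and Sertoli cell markers in the table was at 0 in both libraries of a group. In a whole tissue, fewer cells of a type and fewer footprints per cell cannot be told apart. The part of these shifts in the values below was not tested.

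Promoter windows of 4 of the chaperone genes are shown because they hold the testis-enriched pair and the 2 general chaperones in whose windows a heat shock element was found. Hspa8, Hspa9, Hsp90aa1 and Hsp90ab1 had no promoter window and were not searched. The sequences come from RefSeq (GRCm38.p6), whose promoter table held 5 of the 9 genes. Each reads 5′ to 3′ on the strand of the gene and ends where an annotated transcript starts, or is cut from that window. For Hspa2, Hspa4l and Hsph1 the annotated locus begins before that start, so the stretch printed lies inside the locus, while that of Dnaja1 lies before its locus. Capitals mark the heat shock element searched, which was GAANNTTC or TTCNNGAA, and the CCAAT box, searched as CCAAT or ATTGG, so that both motifs were covered on both strands.
Hspa2, chr12:76404120-76404369, plus strand: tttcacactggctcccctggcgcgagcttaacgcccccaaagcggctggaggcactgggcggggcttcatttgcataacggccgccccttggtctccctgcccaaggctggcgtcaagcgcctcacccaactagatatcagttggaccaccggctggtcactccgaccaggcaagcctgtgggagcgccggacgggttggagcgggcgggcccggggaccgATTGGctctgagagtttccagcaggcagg
Hspa4l, chr3:40745363-40745612, plus strand: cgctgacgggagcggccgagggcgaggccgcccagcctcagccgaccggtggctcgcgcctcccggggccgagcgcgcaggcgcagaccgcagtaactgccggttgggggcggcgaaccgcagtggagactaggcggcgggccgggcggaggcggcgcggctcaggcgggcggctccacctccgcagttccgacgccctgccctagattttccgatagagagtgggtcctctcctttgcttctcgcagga
Hsph1, chr5:149636337-149636396, minus strand: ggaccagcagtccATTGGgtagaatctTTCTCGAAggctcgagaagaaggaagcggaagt
Dnaja1, chr4:40722318-40722377, plus strand: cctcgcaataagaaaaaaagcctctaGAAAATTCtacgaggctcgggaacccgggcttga
The 250 bases before the start of Hspa2 held an ATTGG 29 bases before the start and no heat shock element. Those of Hspa4l and of its paralog Hspa4 held neither motif. Hsph1 had TTCTCGAA 33 or 54 bases before its 2 annotated starts, and Dnaja1 had GAAAATTC 124 bases before the first of its 3 starts. Both windows of Hsph1 also held the CCAAT box. So did the windows of the other 2 starts of Dnaja1, not printed here, which held no heat shock element. A heat shock element of this form was found in 12.8% of all 32851 promoter windows of this length and in 20.2% of the 129 windows of chaperone genes. The CCAAT box was found in 33.8% of all windows. The absence of these letters from a window says nothing of the factors that act there.

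Hspa2, the meiotic HSP70, showed no difference between groups beyond the spread of its samples at day 10, the only age sampled. It had 94.3 and 51.1 normalised reads in Eif5 cKO replicates 1 and 2 (83 and 57 reads), against 105 and 37.9 in control replicates 1 and 2 (129 and 33 reads). The groups overlapped fully: the highest and the lowest sample were both controls. Means were 72.7 ± 30.5 in Eif5 cKO and 71.6 ± 47.7 in control (SD, n = 2 each). On the log2(value + 1) scale the fold change was 0.13 (SE 0.40, 95% interval -0.68 to 0.94; limma, adjusted p = 0.944). That interval spans 0.625-fold to 1.92-fold, so a change within these bounds could not be told from none with this depth and spread. The sign of the estimate depended on the setting, being positive in DESeq2 (0.012), and negative in edgeR (-0.021), in limma-voom (-0.0056) and with libraries scaled on Sertoli cell markers (-0.31). That last scaling shifts all genes alike and put the median of all genes at -0.44. Leaving out Eif5 cKO replicate 1 or control replicate 2 also turned it, to -0.30 and -0.59. Without Eif5 cKO replicate 2 or control replicate 1 it was 0.57 and 0.86.

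The spread of Hspa2 between samples of one group was wide. Control replicate 1 was 2.78 times control replicate 2, a larger difference on the log2 scale than that of 96.8% of the 12095 genes tested. Eif5 cKO replicate 1 was 1.84 times replicate 2, a larger difference than that of 83.0% of genes. The 5 genes whose profile over the 4 samples was closest to that of Hspa2, by Euclidean distance of centred log2 values over genes with a mean of at least 10, were Plekhb1, Ust, Kank3, Nanos3 and 2010300C02Rik (distances 0.106 to 0.248). Of these, Nanos3 is an RNA-binding protein of early germ cells. It had 30.7 and 19.7 normalised reads in Eif5 cKO (27 and 22 reads) and 32.6 and 12.6 in control (40 and 11 reads). As for Hspa2, replicate 1 was the higher sample in both groups, and the log2 fold change was 0.26 (SE 0.59, adjusted p = 0.923 in limma). The other 4 had log2 fold changes of 0.047 to 0.33 and none passed. The 5 genes were selected by their profile, which fixes their likeness to Hspa2. An annotated noncoding gene, 4930426I24Rik, overlaps the first 183 bases of the Hspa2 locus (chromosome 12, 76403812 to 76406938, GRCm38), so reads there could not be assigned by position alone.

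Hspa4l, the testis-enriched HSP110 protein, had the lowest fold change of the 9 genes and was the only one with an unadjusted p under 0.05 in limma, yet it did not pass after adjustment. It had 190 and 268 normalised reads in Eif5 cKO replicates 1 and 2, against 370 and 388 in the controls. Both Eif5 cKO samples lay below both controls, which held for 20.9% of all genes tested. Means were 229 ± 55.5 in Eif5 cKO and 379 ± 12.9 in control (SD, n = 2 each), so the level in Eif5 cKO was 0.604 of that in control. Its log2 fold change was estimated at -0.74 (SE 0.24, 95% interval -1.24 to -0.25; limma, unadjusted p = 0.00397, adjusted p = 0.181). edgeR with TMM factors, DESeq2 and limma-voom gave adjusted p = 0.185, 0.358 and 0.146. Without Eif5 cKO replicate 2 the gene passed in limma (log2 fold change -0.99, adjusted p = 0.0343), in a fit that called 346 genes and in which the lone Eif5 cKO sample was assumed to vary like the controls. Without Eif5 cKO replicate 1 the log2 fold change was -0.50 (adjusted p = 0.596). The locus is on chromosome 3, 40744500 to 40796103 (GRCm38).

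The closest profiles to that of Hspa4l belonged to Hipk1, Mki67, Dpf1, R3hdm1 and Aaas (distances 0.0167 to 0.0507). Mki67, a marker of cycling cells, had 53.4 and 76.3 normalised reads in Eif5 cKO and 102 and 109 in control. Its log2 fold change was -0.72 (SE 0.33, adjusted p = 0.423 in limma). The 5 had log2 fold changes between -0.79 and -0.72, a likeness that their selection fixes, and none passed.

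**Figure D1:**
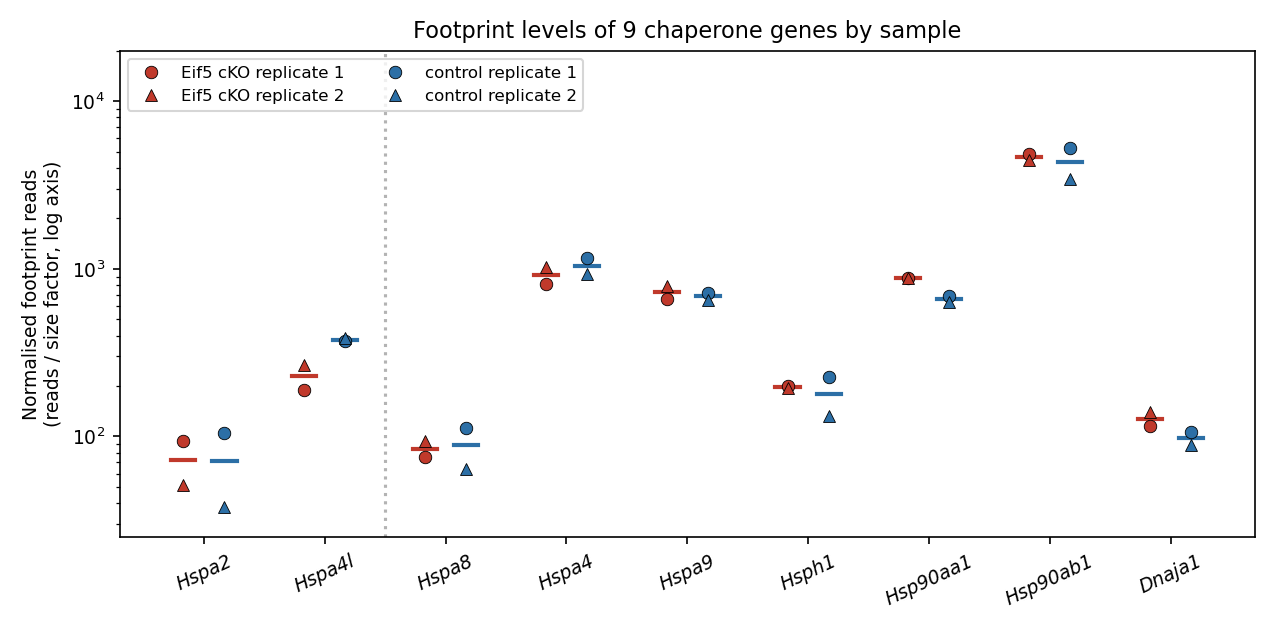
Normalised footprint reads (reads divided by size factor, log axis) of the 9 chaperone genes in each library; red, Eif5 cKO, blue, control, circles replicate 1, triangles replicate 2, bars the group mean of n = 2. Hspa2 spans 37.9 to 105 within the controls, while Hspa4l lies at 190 and 268 in Eif5 cKO and at 370 and 388 in control.

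The 7 general chaperones had log2 fold changes from -0.19 to 0.40, and none passed. In all, 0 of the 9 genes were called by limma, edgeR, DESeq2 or limma-voom, beside 0.678% of all 12095 genes tested by limma (0.604% lower and 0.0744% higher). At an unadjusted p under 0.05 limma had 1 of the 9 (Hspa4l), beside 10.6% of all genes. The median over the 7 was 0.12 and that over all genes tested 0.0032. With libraries scaled on Sertoli cell markers, Hspa9, Hsph1, Hsp90aa1, Hsp90ab1 and Dnaja1 took a negative sign along with the median of all genes.

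Hsp90aa1, the stress-inducible cytosolic HSP90, was the general chaperone with the highest fold change. It had 876 and 883 normalised reads in Eif5 cKO testes, against 691 and 638 in controls. Both Eif5 cKO samples lay above both controls, as for 20.0% of all genes tested. Its log2 fold change was estimated at 0.40 (SE 0.22, 95% interval -0.045 to 0.85; limma, adjusted p = 0.537), and it stayed between 0.35 and 0.46 when any 1 library was left out. Hsp90aa1 lies on the same chromosome as Eif5, with 842 kb between the 2 genes (chromosome 12, 110691036 to 110696395 for Hsp90aa1).

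Hsp90ab1, the constitutive cytosolic HSP90, had 4816 and 4440 normalised reads in Eif5 cKO, against 5243 and 3439 in controls. The Eif5 cKO samples lay between the controls, and the log2 fold change came to 0.12 (SE 0.28; 95% interval -0.43 to 0.68; adjusted p = 0.920). With 4239 and 4949 reads in Eif5 cKO and 6424 and 2996 in control, counting error was small beside the spread between the controls. Hsp90ab1 alone took 0.185% and 0.178% of reads in Eif5 cKO and 0.219% and 0.135% in control.

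Hspa8, the constitutive cytosolic HSP70 (HSC70), had 75.0 and 94.2 normalised reads in Eif5 cKO, against 113 and 64.3 in controls, with a log2 fold change of -0.018 (SE 0.34, 95% interval -0.70 to 0.66; adjusted p = 0.992). The Eif5 cKO samples again lay between the controls. Small nucleolar RNA genes, Snord14c, Snord14d and Snord14e, are annotated inside Hspa8 and had no row of their own in the table analysed here. How the authors counted reads that map to several places is not stated, so reads shared with pseudogene copies make the level of Hspa8 uncertain.

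Hspa4, the general paralog of Hspa4l, had 813 and 1020 normalised reads in Eif5 cKO and 1163 and 929 in control. The groups overlapped, with a log2 fold change of -0.19 (SE 0.23, 95% interval -0.65 to 0.27; adjusted p = 0.826). Hsph1, the heat-inducible HSP110, had 201 and 194 in Eif5 cKO and 228 and 133 in control. Its Eif5 cKO samples were nearly equal and lay between the controls (log2 fold change 0.18, SE 0.27, adjusted p = 0.864).

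Hspa9 encodes mortalin, the HSP70 of the mitochondrial matrix. It had 660 and 793 normalised reads in Eif5 cKO, against 719 and 654 in control, with a log2 fold change of 0.077 (SE 0.22, 95% interval -0.38 to 0.53; adjusted p = 0.941). The groups overlapped. A small nucleolar RNA gene annotated within the Hspa9 locus, Gm26109, had a row of its own with 3680 and 4001 normalised reads in Eif5 cKO and 1497 and 2542 in control (log2 fold change 0.98, SE 0.26, adjusted p = 0.0718 in limma). Gm26109 is annotated as a small nucleolar RNA, so its reads are no measure of translation. It did not pass, and it was singled out after its values were seen.

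Dnaja1, a J-domain partner of HSP70, had 115 and 140 normalised reads in Eif5 cKO, against 107 and 89.5 in control. Both Eif5 cKO samples lay above both controls, and the log2 fold change came to 0.37 (SE 0.30; 95% interval -0.23 to 0.97; adjusted p = 0.711). Of the 9 genes, 2 lay above the controls without overlap (Hsp90aa1 and Dnaja1), 1 below (Hspa4l) and 6 overlapped, beside 40.8% of all genes tested whose groups did not overlap in one direction or the other. The 9 genes together took 0.300% and 0.316% of reads in Eif5 cKO libraries and 0.365% and 0.249% in controls, so the controls enclosed the Eif5 cKO samples.

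**Figure D2:**
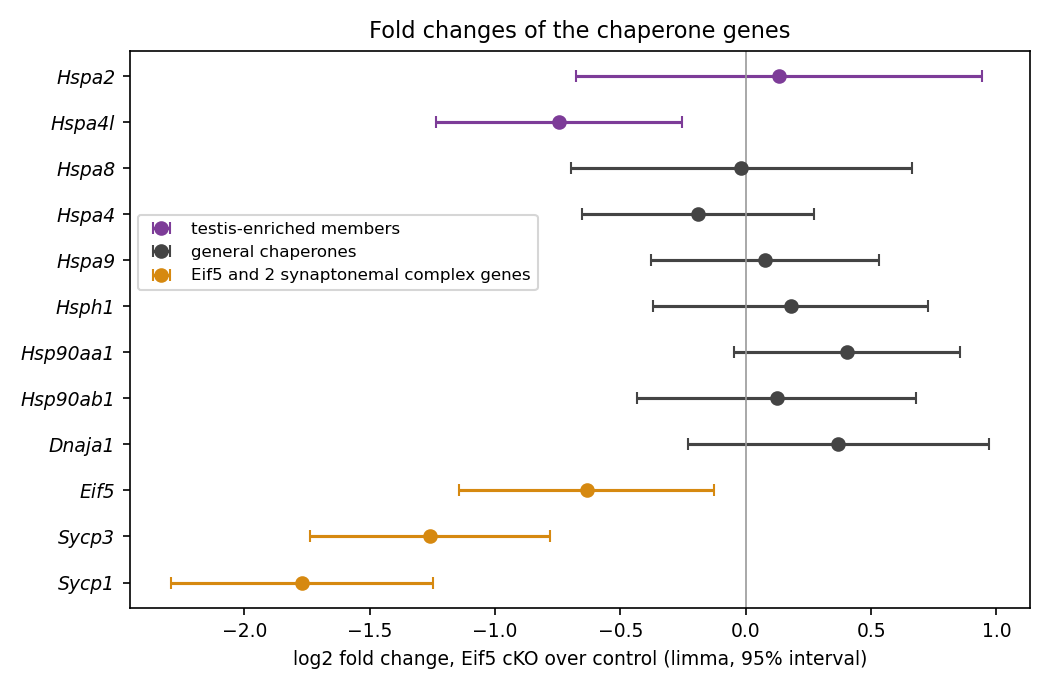
Log2 fold change of Eif5 cKO over control from limma with its 95% interval for the 9 chaperone genes, Eif5 and the synaptonemal complex genes Sycp3 and Sycp1. Hspa2 and the general chaperones have intervals that include 0, Hspa4l has one from -1.24 to -0.25, and Sycp1 lies lowest at -1.77.

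To set the testis-enriched genes against their general relatives, the log2 ratio of the 2 genes was taken within each library, which removes any library scaling up to the pseudocount. With 2 samples against 2, the exact permutation test over samples cannot give a two-sided p below 0.333. The ratio of Hspa4l to Hspa4 was 0.233 and 0.263 in Eif5 cKO libraries and 0.318 and 0.418 in controls. Both Eif5 cKO libraries were below both controls, and the mean log2 ratio was 0.55 lower in Eif5 cKO (difference -0.55, exact permutation p = 0.333). Hspa2 and Hspa8 had 33 to 138 reads per library, and reads shared with pseudogene copies make the level of Hspa8 uncertain. The ratio of Hspa2 to Hspa8 was 1.26 and 0.543 in Eif5 cKO and 0.935 and 0.589 in control, which overlapped (log2 difference 0.15, exact permutation p = 1.0). Hsp90aa1 to Hsp90ab1 was 0.182 and 0.199 in Eif5 cKO and 0.132 and 0.186 in control, which also overlapped (log2 difference 0.28, exact permutation p = 0.667). No p was adjusted over these ratios, since none could reach the threshold.

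Genes of meiotic prophase gave a second yardstick for the testis-enriched pair. Of the 27 genes on that list, 24 were in the table and 21 were tested. Of these, 13 fell and 0 rose, beside 0.604% of all genes called lower, and their median log2 fold change was -1.47. The list was chosen with earlier results of these data known, so its direction is no independent evidence. All 21 estimates, from -3.57 to -0.80, were below the lower end of the interval of Hspa2 (-0.68), but the intervals of 9 of the 21 reached above it. Spo11, which makes the meiotic DNA breaks and was not tested, had 0 and 0 reads in Eif5 cKO libraries and 3 and 7 in controls. Sycp3, a lateral element protein of the synaptonemal complex, had 244 and 369 normalised reads in Eif5 cKO and 671 and 773 in control (log2 fold change -1.26, SE 0.24, adjusted p = 0.00196 in limma). Sycp1, Stag3, Smc1b and Tex15, all genes of meiotic chromosomes, had log2 fold changes of -1.77, -1.57, -1.72 and -1.43. Sycp3 did not pass without Eif5 cKO replicate 1, control replicate 1 or control replicate 2 (adjusted p = 0.0616, 0.0716 and 0.131). Without control replicate 1, Sycp1, Stag3, Smc1b and Tex15 did not pass either (adjusted p = 0.0517, 0.0990, 0.217 and 0.0517), nor did Tex15 without control replicate 2 (0.0575).

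Within libraries, the ratio of Hspa2 to Sycp1 was 0.965 and 0.333 in Eif5 cKO and 0.227 and 0.0997 in control. Both Eif5 cKO libraries were above both controls, with a log2 difference of 1.90 (exact permutation p = 0.333, the smallest possible). The ratio of Hspa2 to Sycp3 was 0.386 and 0.139 in Eif5 cKO and 0.157 and 0.0490 in control, and here the groups overlapped (log2 difference 1.39, exact permutation p = 0.667). Hspa4l relative to Sycp3 was 0.777 and 0.727 in Eif5 cKO and 0.551 and 0.502 in control, without overlap (log2 difference 0.51, exact permutation p = 0.333). Relative to Sycp1 it was 1.94 and 1.75 in Eif5 cKO and 0.796 and 1.02 in control, again without overlap (log2 difference 1.03, exact permutation p = 0.333). These 4 ratios were added after the data were seen. Sycp3 and Sycp1 had themselves fallen, so a ratio to them is higher for any gene with a smaller decrease.

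**Figure D3:**
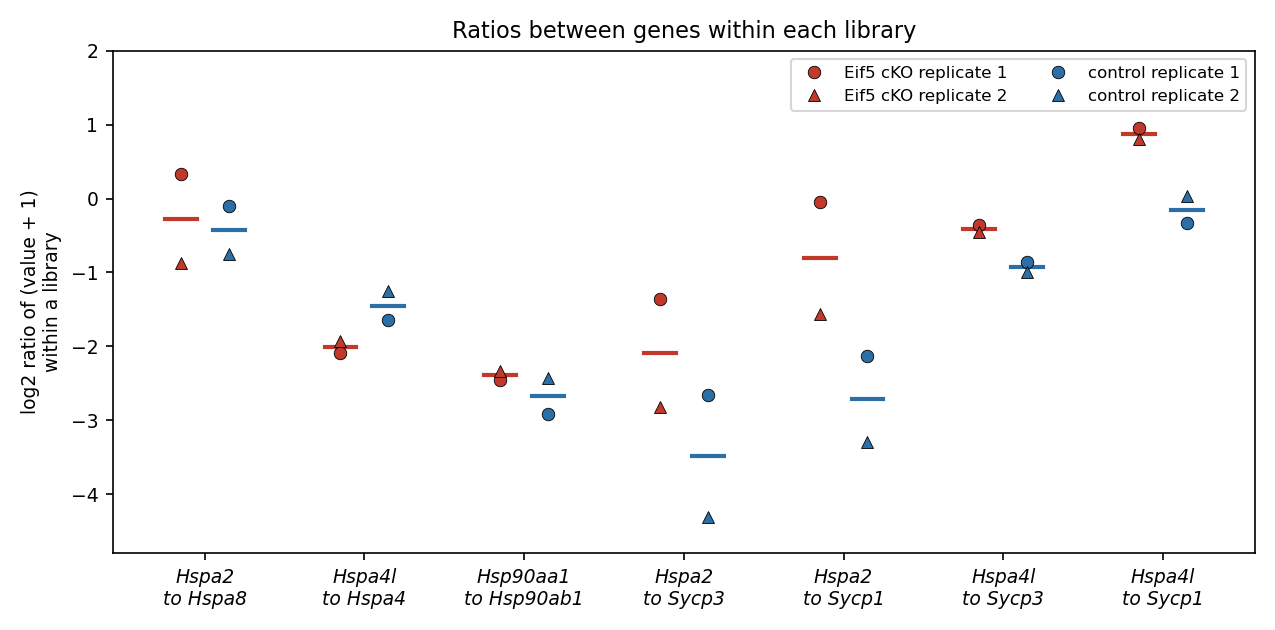
Log2 ratio of 2 genes within each library for 3 paralog pairs and for Hspa2 and Hspa4l against Sycp3 and Sycp1; red, Eif5 cKO, blue, control, bars the group mean of n = 2. Hspa4l to Hspa4 is lower in both Eif5 cKO libraries than in both controls, while Hspa2 to Hspa8 overlaps.

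Markers of testis cell types were read beside these genes. Undifferentiated spermatogonia markers, 14 genes, took 0.0306% and 0.0295% of reads in Eif5 cKO and 0.0371% and 0.0317% in control, with 0 of 11 tested called. Of the 8 tested markers of differentiating spermatogonia 2 fell and 0 rose, with shares of 0.108% and 0.115% in Eif5 cKO and 0.173% and 0.148% in control. Of the 10 germ cell markers tested 5 fell and 0 rose. Over all genes tested, 0.604% were called lower and 0.0744% higher. Spermatid markers took 0.00396% and 0.00295% in Eif5 cKO and 0.00116% and 0.00234% in control, with 0 of 4 tested called. Odf1, on this list but too low to be tested, had 11 and 1 reads in Eif5 cKO and 0 and 0 in control. All testes were from day 10, and the source of these few reads was not tested. Of the 17 Sertoli cell markers tested 1 rose and 0 fell. Leydig cell markers took 0.122% and 0.115% of reads in Eif5 cKO and 0.0747% and 0.0851% in control, with 0 of 8 tested called. Macrophage markers took 0.0694% and 0.0768% in Eif5 cKO and 0.0518% and 0.0598% in control, with 0 of 10 called. The shares of Leydig cell and macrophage markers were higher in both Eif5 cKO libraries than in both controls. All 8 Leydig cell and all 10 macrophage markers tested had a positive sign, as did 16 of the 17 Sertoli cell markers. At an unadjusted p under 0.05 in limma were 7 Sertoli cell, 6 Leydig cell and 2 macrophage markers, beside 10.6% of all genes. Of the 9 peritubular myoid cell markers tested, 7 had a negative sign. Peritubular myoid cell markers took 0.305% and 0.258% in Eif5 cKO and 0.324% and 0.314% in control, lower in both Eif5 cKO libraries. Endothelial cell markers took 0.0520% and 0.0387% in Eif5 cKO and 0.0424% and 0.0445% in control, and here the groups overlapped. The part of these cell types in the values of the general chaperones was not tested. Both Eif5 cKO libraries thus had a lower germ cell share and a lower Hspa4l value than both controls, while the Hspa2 values overlapped. The part of cell composition in either was not tested.

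Genes linked to HSPA2 in spermatocytes were measured as well. Bag6, whose product keeps HSPA2 stable in mouse spermatocytes, had 1418 and 1471 normalised reads in Eif5 cKO and 1356 and 1282 in control (log2 fold change 0.13, SE 0.23, adjusted p = 0.885). Cdk1, the kinase whose pairing with cyclin B1 needs HSPA2, had 304 and 266 in Eif5 cKO and 275 and 261 in control (0.087, SE 0.24, adjusted p = 0.938). Both Eif5 cKO samples lay above both controls for Bag6, the groups overlapped for Cdk1, and neither gene passed in limma. Of the 12 genes of CDK1 and its partners, 9 were tested and 0 passed. Ccnb1, the cyclin B1 gene, Ccna1 and Cks2 did not pass the filter on low values and were not tested. Ccna2, cyclin A2 (-0.48, SE 0.23, adjusted p = 0.468), and Pkmyt1, a kinase that inhibits CDK1 (-1.16, SE 0.62, adjusted p = 0.525), had the smallest p in limma.

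The wider chaperone system was read from the same fit. Over 8 further lists, 107 of 120 genes were in the table and 101 were tested, of which 0 rose and 0 fell in limma, beside 0.678% of all genes called. At an unadjusted p under 0.05 there were 9, of which 5 were higher and 4 lower, beside 10.6% of all genes. The median log2 fold change over the 101 was 0.015. The groups did not overlap for 24 genes with Eif5 cKO above and 22 with Eif5 cKO below, while 55 overlapped. Over all genes tested these shares were 20.0% above and 20.9% below, so the counts lay near the background.

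Among the other HSP70 genes, 6 were tested and none passed. Hspa14, a ribosome-associated HSP70-like protein, had 169 and 213 normalised reads in Eif5 cKO and 260 and 257 in control (log2 fold change -0.45, SE 0.25, adjusted p = 0.552). Hspa13 had 0.16 (SE 0.23, adjusted p = 0.857). The heat-inducible pair Hspa1a and Hspa1b had few reads. Hspa1a had 7.95 and 0 normalised reads in Eif5 cKO and 3.26 and 9.18 in control, and Hspa1b 2.27 and 7.18 in Eif5 cKO and 3.26 and 3.44 in control. They are near-identical copies, so reads may have been lost or shared between them, and neither was tested. Of the other HSP90 genes, Trap1, the mitochondrial form, had -0.44 (SE 0.27, adjusted p = 0.594), and Hsp90b1, the form of the endoplasmic reticulum, had 0.36 (SE 0.35, adjusted p = 0.766).

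J-domain genes were the largest list, with 36 tested, 0 called and a median of 0.010. Dnajc12 had 75.0 and 45.8 normalised reads in Eif5 cKO and 27.7 and 21.8 in control (log2 fold change 1.22, SE 0.45, adjusted p = 0.275). Dnajc28 had 31.8 and 63.7 in Eif5 cKO and 23.7 and 17.2 in control (1.12, SE 0.51, adjusted p = 0.413). Both had Eif5 cKO above control in every sample, and neither passed in limma.

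HSP70 co-chaperones (12 tested, 0 called, median 0.13) were led by Bag5, a nucleotide exchange factor, with 81.8 and 83.4 normalised reads in Eif5 cKO and 56.3 and 56.2 in control (log2 fold change 0.55, SE 0.35, adjusted p = 0.620). Bag5 also lies on chromosome 12, nearer to Eif5 than Hsp90aa1 does (111709488 to 111713256, against 111538101 to 111546753 for Eif5). Bag2 had -0.37 (SE 0.30, adjusted p = 0.718). HSP90 co-chaperones (20 tested, 0 called, median 0.0039) held 2 genes that pointed opposite ways. Sugt1, which links HSP90 to kinetochore assembly, had 930 and 1129 in Eif5 cKO and 680 and 616 in control (0.66, SE 0.22, adjusted p = 0.206). Tomm34, which escorts proteins to mitochondria, had 386 and 377 in Eif5 cKO and 639 and 539 in control (-0.62, SE 0.23, adjusted p = 0.262).

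For chaperonins and prefoldin, 16 genes were tested, 0 were called and the median was -0.15. Of the 16, 12 had a negative sign and 4 a positive one, while the 2 with the smallest p, Hspe1 and Pfdn4, were higher. Hspe1, the co-chaperonin of mitochondria, had 1343 and 780 normalised reads in Eif5 cKO and 588 and 731 in control (log2 fold change 0.64, SE 0.24, adjusted p = 0.283). Its estimate depended on 1 library: without Eif5 cKO replicate 2 it passed (1.03, adjusted p = 0.0292 in limma), and without Eif5 cKO replicate 1 it was 0.25 (adjusted p = 0.833). Pfdn4, a prefoldin subunit, had 0.52 (SE 0.25, adjusted p = 0.452). The 5 small heat shock proteins tested all had positive signs, with a median of 0.59 and 0 calls. Cryab (0.93, SE 0.60, adjusted p = 0.625) and Hspb8 (0.59, SE 0.44, adjusted p = 0.681) had the smallest p, at low levels of at most 52.3 normalised reads in any library.

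Of the heat shock factors, Hsf1, the main activator of heat shock genes, had 85.2 and 63.7 normalised reads in Eif5 cKO and 60.4 and 62.0 in control (log2 fold change 0.26, SE 0.35, adjusted p = 0.848). Hsf2, which also acts in spermatogenesis, had 214 and 239 in Eif5 cKO and 264 and 219 in control (-0.092, SE 0.25, adjusted p = 0.936). Hsf2bp, a meiotic recombination protein that binds HSF2 and BRCA2, had 19.3 and 15.3 in Eif5 cKO and 51.4 and 36.7 in control (-1.29, SE 0.52, adjusted p = 0.335). Hsbp1 had 0.44 (SE 0.23, adjusted p = 0.506). None of the 4 passed in limma.

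**Figure D4:**
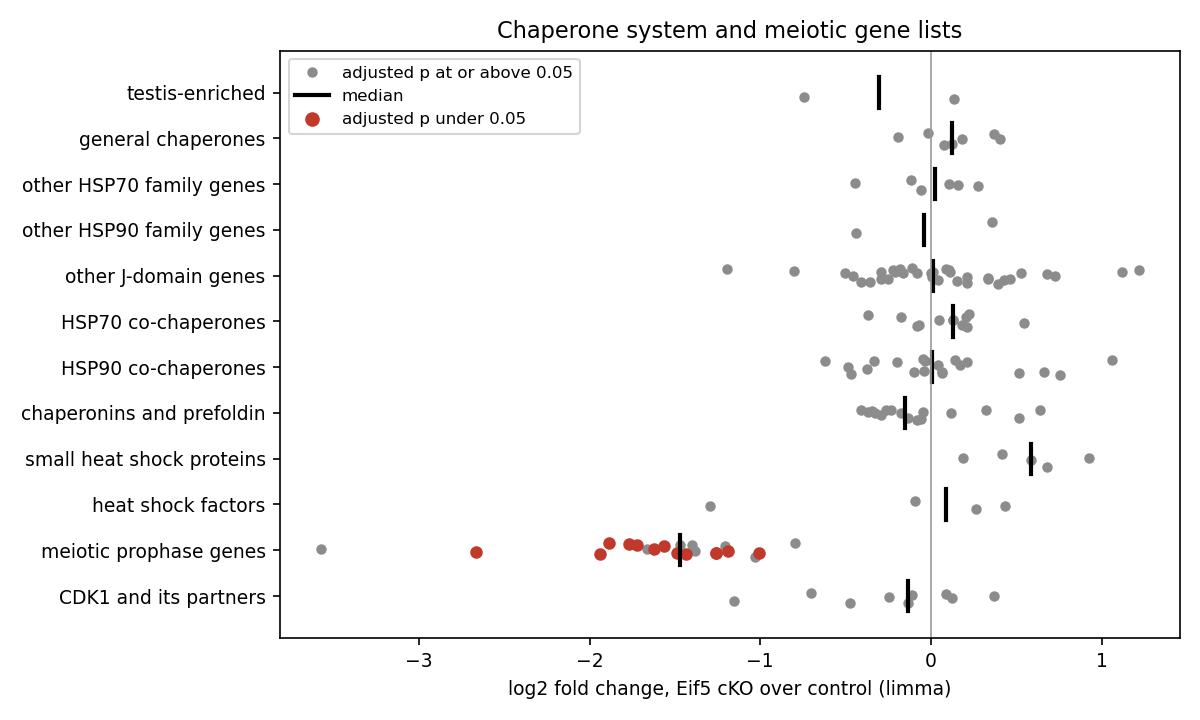
Log2 fold change of Eif5 cKO over control for each tested gene of the chaperone lists, of meiotic prophase and of CDK1 and its partners; red points have an adjusted p under 0.05, grey points do not, and black bars are list medians. Red points occur in the meiotic prophase list, with 13 of 21 tested genes, and in none of the chaperone lists.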

How the data were processed

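Ribosome footprints were measured in 4 whole-testis libraries, grouped by sample title. Per the submitters' processing notes, Bowtie2, STAR, featureCounts and GRCm38 were used, with versions and settings not given. The deposited values are a signal, reads per gene divided by a size factor by the authors (0.880 and 1.11 for Eif5 cKO, 1.23 and 0.871 for control). Whole reads were recovered for 100.0% of values (relative tolerance 1e-06). Separate animals are not stated for any group, so the spread behind each p-value may be technical.

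limma 3.58.1 (R 4.3.3) with an intensity trend was fitted to log2(value + 1), with group as the term, over 12095 genes passing filterByExpr of edgeR 4.0.16 (minimum count 10). A gene passed at a Benjamini-Hochberg adjusted p under 0.05 over all genes (two-sided). On this scale the change of low genes is understated. The edgeR count test on the recovered reads called 92 genes, against 82 by limma. The fit was tested on simulated data, where limma recovered 34% of 2-fold and 83% of 4-fold changes. A gene that did not pass may therefore still have changed. DESeq2 1.42.0, limma-voom, other scalings, filters and pseudocounts, a replicate block and leaving out each library were alternatives.

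Named genes were Eif5, the members, fixed partners of HSPA2, up to 4 called genes of each list by smallest p (otherwise the 2 with the smallest p), and the 5 closest profiles to Hspa2 and Hspa4l. Genes outside this rule, such as Hspa1a, Hspa1b, Spo11, Odf1 and Gm26109, were chosen after their values were seen. The members and lists were chosen with earlier results of these data known. mRNA abundance was not analysed here, so footprint values are not translational efficiency.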

Additional observations from a re-analysis of the deposited data

How the results depend on the processing

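Fold changes below are log2 values of Eif5 cKO over control. Leaving out each library in turn gave 10 to 346 called genes in all and 0 to 1 of the 9 chaperone genes, with Hspa4l passing without Eif5 cKO replicate 2. In the same fits Hspa2 ranged from -0.59 to 0.86, Hspa4l from -0.99 to -0.50, Hspa8 from -0.42 to 0.38, Hspa9 from -0.055 to 0.21, Hsph1 from -0.20 to 0.56 and Hsp90ab1 from -0.18 to 0.43. Hsf2 ranged from -0.23 to 0.042, Cdk1 from -0.011 to 0.19, Hspa13 from -0.020 to 0.34, Plekhb1 from -0.64 to 0.73, Ust from -0.37 to 1.01, Kank3 from -0.37 to 0.86, Nanos3 from -0.39 to 0.91 and 2010300C02Rik from -0.35 to 1.00. Of the 47 genes refitted, 34 kept their sign throughout, and for 26 of these the extremes differed by more than 1.5 times, among them Eif5 (-0.94 to -0.33), Dnajc12 (0.87 to 1.57), Dnajc28 (0.63 to 1.61), Cryab (0.55 to 1.31) and Trap1 (-0.79 to -0.082). The log2 ratio difference ranged from -0.45 to 0.75 for Hspa2 to Hspa8, -0.75 to -0.36 for Hspa4l to Hspa4 and 0.035 to 0.53 for Hsp90aa1 to Hsp90ab1. It ranged from 0.57 to 2.22 for Hspa2 to Sycp3, 1.15 to 2.66 for Hspa2 to Sycp1, 0.45 to 0.58 for Hspa4l to Sycp3 and 0.85 to 1.20 for Hspa4l to Sycp1. With libraries scaled on the Sertoli list, which moved the median of all genes to -0.44, signs turned for Hspa2 (-0.31), Hspa9 (-0.37), Hsph1 (-0.27), Hsp90aa1 (-0.045), Hsp90ab1 (-0.33), Dnaja1 (-0.076), Hsf1 (-0.18), Bag6 (-0.32), Cdk1 (-0.36), Hspa13 (-0.29), Hsp90b1 (-0.093), Hsbp1 (-0.013), Plekhb1 (-0.38), Ust (-0.11), Kank3 (-0.20), Nanos3 (-0.18) and 2010300C02Rik (-0.11). Signs also turned for Hspa2 in edgeR with DESeq2 size factors (-0.011), edgeR with TMM factors (-0.021) and limma-voom (-0.0056), and for Plekhb1 in these fits (-0.094, -0.10 and -0.15) and in DESeq2 (-0.074). The cause was not tested. The labels do not say whether the replicate numbers pair the samples. The correlation over genes of the replicate 1 minus 2 difference between the groups was -0.047, which cannot settle it. With the replicate block limma called 100 genes and 0 of the 9 chaperone genes. The other settings called 67 to 113 genes and 0 of the 9. Both the spread between replicates and, for Hspa2 and Hspa8, the 33 to 138 reads per library limit what could be detected.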
